A study of Mus musculus with 2756 samples.

Results

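The genes described here are the mouse homeobox genes Dlx1, Dlx2, Dlx5 and Dlx6, the noncoding RNA Dlx6os1 and the genes for making and packaging the transmitter GABA, Gad1, Gad2 and Slc32a1. These 8 genes were chosen by name and all 8 were found among the 16441 genes of the count table. The cells came from the embryonic mouse neocortex. FlashTag, a dye taken up by cells that divide along the ventricle, was injected on E12, E13, E14 or E15, the days of embryonic life, and the brightest cells were sorted after 1, 24 or 96 h for sequencing of single cells. The 4 days and 3 times formed 12 conditions of 52.3 to 99.04 M counts, with a median of 328910 counts per cell, and the labels gave each cell 1 of 15 clusters made by the authors. No animal was named in the labels, so each condition was treated as 1 sample, and the spread behind every p-value is that between conditions, which may be technical.

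The authors' interneuron clusters are IN.1 and IN.2. The other 13 clusters, with 2513 cells, were named for astrocytes (Astro), neurons typical of 4 days (N4d) or 1 day (N1d) after labelling, basal progenitors (BP) and apical progenitors (AP). Of the interneuron markers listed, 10 of 11 were in the table and all 10 were at 10 CPM or more (CPM, counts per M counts of a sum) in IN cells at 96 h, with a summed level of 2164 CPM in IN cells, against 273.4 CPM in N4d cells at 96 h. The excitatory marker Neurod6 was detected in 96.9% of IN cells at 96 h, at 257.9 CPM. Because the clusters were made from the expression of these cells, differences between clusters are given with no test.

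In the developing forebrain, GABA neurons arise from ventral progenitors in the ganglionic eminences and migrate into the cortex, while the cortex's own apical progenitors make glutamate neurons. Dlx1 and Dlx2 encode transcription factors of ventral progenitors and young GABA neurons, and Dlx5 and Dlx6 encode related factors that act after them in the same lineage. Dlx6os1, also called Evf2, is a long noncoding RNA transcribed across Dlx6 from the opposite strand. Gad1 and Gad2 encode the enzymes that make GABA from glutamate, and Slc32a1 encodes the transporter that loads GABA into synaptic vesicles.

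The Dlx genes lie in pairs. In the GENCODE annotation of GRCm38, Dlx1 (chr2:71528113-71533981, plus strand) and Dlx2 (chr2:71543408-71546754, minus strand) were 9426 bases apart, and Dlx6 (chr6:6863334-6868568, plus strand) and Dlx5 (chr6:6877805-6882085, minus strand) were 9236 bases apart. All 4 are protein-coding genes. The antisense gene Dlx6os1 (chr6:6820189-6871592, minus strand) covered the whole of Dlx6, and Dlx1as covered the whole of Dlx1. The library kit named in the labels does not mark strand, so reads of Dlx6 and Dlx6os1, and of Dlx1 and Dlx1as, cannot be told apart where they overlap. Gad1 (chr2:70553072-70602014), Gad2 (chr2:22622205-22693874) and Slc32a1 (chr2:158610767-158615748), all protein-coding, are on the plus strand.

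Promoter windows of 300 bases, 250 before to 50 after a start site, were found in RefSeq's GRCm38.p6 table for 6 of the 8 genes, in 7 windows, with none for Dlx5 or Dlx6. They are shown for the 4 genes with the highest CPM in IN cells, since these carry most of the counts described below. Capitals mark TAATTA, a core that Dlx and other homeodomain proteins bind, and CAGCTG, an E-box of proneural factors, both searched on both strands with no overlap between them. Positions and letters run 5′ to 3′ on the strand of the gene.
Dlx6os1, window 1 (chr6:6869484-6869783, minus strand): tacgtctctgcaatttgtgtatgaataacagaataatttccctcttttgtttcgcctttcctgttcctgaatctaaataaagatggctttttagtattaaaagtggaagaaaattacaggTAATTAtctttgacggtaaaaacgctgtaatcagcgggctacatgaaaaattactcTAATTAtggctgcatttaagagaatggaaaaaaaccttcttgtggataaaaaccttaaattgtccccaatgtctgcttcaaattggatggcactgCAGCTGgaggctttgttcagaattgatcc
Dlx6os1, window 2 (chr6:6861634-6861933, minus strand): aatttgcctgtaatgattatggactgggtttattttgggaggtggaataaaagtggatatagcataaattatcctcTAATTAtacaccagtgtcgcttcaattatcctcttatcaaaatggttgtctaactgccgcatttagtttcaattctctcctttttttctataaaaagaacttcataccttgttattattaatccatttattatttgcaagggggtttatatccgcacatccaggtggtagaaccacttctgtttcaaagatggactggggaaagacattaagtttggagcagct
Dlx1 (chr2:71529195-71529494, plus strand): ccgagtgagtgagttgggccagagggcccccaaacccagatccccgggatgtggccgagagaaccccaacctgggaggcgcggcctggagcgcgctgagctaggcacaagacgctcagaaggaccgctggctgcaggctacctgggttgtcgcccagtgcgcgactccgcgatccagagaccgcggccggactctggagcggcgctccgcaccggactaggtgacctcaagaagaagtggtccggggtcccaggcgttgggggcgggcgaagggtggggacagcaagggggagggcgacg
Gad1 (chr2:70561879-70562178, plus strand): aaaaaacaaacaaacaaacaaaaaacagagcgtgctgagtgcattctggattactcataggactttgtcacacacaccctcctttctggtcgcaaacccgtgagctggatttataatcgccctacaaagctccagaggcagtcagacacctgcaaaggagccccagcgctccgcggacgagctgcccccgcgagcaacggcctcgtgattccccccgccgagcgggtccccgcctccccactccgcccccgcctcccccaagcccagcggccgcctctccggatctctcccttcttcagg
Gad2 (chr2:22622077-22622376, plus strand): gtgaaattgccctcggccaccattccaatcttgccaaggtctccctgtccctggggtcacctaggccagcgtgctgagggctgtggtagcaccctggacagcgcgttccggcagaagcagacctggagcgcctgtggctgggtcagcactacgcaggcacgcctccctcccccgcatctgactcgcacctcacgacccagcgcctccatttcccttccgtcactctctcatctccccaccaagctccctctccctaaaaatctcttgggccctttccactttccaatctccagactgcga
Window 1 of Dlx6os1 held TAATTA at 2 places, 130 and 74 bases before the start, and CAGCTG 22 bases after it. Window 2 held TAATTA once. The other 5 windows, those of Dlx2 and Slc32a1 included, held neither motif. Over 32851 windows of the same length, 5.29% held TAATTA and 16.3% held CAGCTG. The Dlx6os1 windows were 35.7% and 35.3% GC, the other 5 were 60% to 69.3% GC, and the median of all windows was 52.7%.

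All 8 genes had their highest CPM in the IN clusters, with IN.1 or IN.2 above each of the 13 other clusters. Over all days and times, Dlx1 had 389 CPM in IN cells and 13.0 CPM outside them, Dlx6os1 had 453 and 10.9 CPM, Gad1 307 and 5.63 CPM, and Gad2 421 and 10.1 CPM in the same order. The less abundant genes had 102.7 and 2.53 CPM (Dlx2), 63.2 and 1.69 CPM (Dlx5), 25.0 and 0.806 CPM (Dlx6) and 26.9 and 0.389 CPM (Slc32a1). Scaled by exon length, the order of levels in IN cells was Dlx6os1 (87.6 CPM per kb), Dlx1 (72.01), Gad2 (71.7), Gad1 (40.1), Dlx2 (36.0), Dlx5 (27.9), Dlx6 (10.5) and Slc32a1 (9.61). Dlx1 and Gad2 are neighbours in that order whose values are close to each other, as are Dlx6 and Slc32a1.

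**Figure D1:**
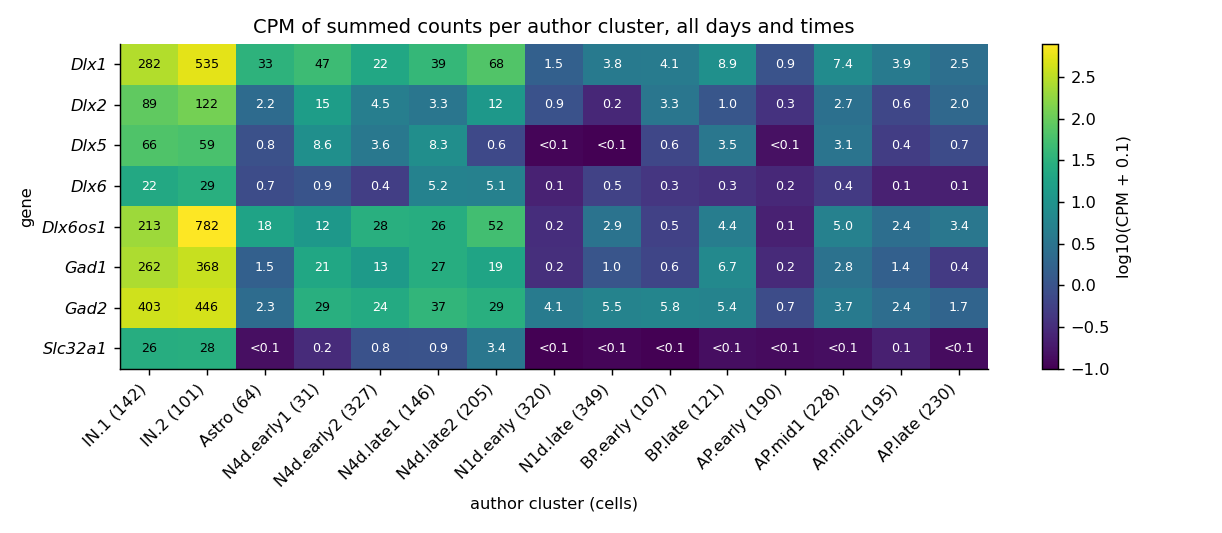
Heat map of the CPM of summed counts of the 8 genes (rows) in the 15 author clusters (columns, with the number of cells), coloured by log10(CPM + 0.1), with the CPM printed in each field. The 2 IN columns at the left are the brightest in every row, and the Astro and N4d columns beside them are above the progenitor and N1d columns for Dlx1 and Dlx6os1. Each column sums all days and times.

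Among the clusters outside IN, in sums over all times, the 4 N4d clusters and Astro stood highest for Dlx1 and Dlx6os1, and the N4d clusters for Gad1 and Gad2. N4d and Astro cells were nearly all of 96 h, so cluster and time are not separated in these sums. Dlx1 reached 68.4 CPM in N4d.late2, 47.3 in N4d.early1, 38.9 in N4d.late1, 33.2 in Astro and 21.8 in N4d.early2, and was at 0.885 to 8.90 CPM in the 8 other clusters. Gad2 was at 23.6 to 36.7 CPM in the 4 N4d clusters, at 2.28 CPM in Astro and at 0.692 to 5.83 CPM elsewhere. At 96 h alone, Dlx1 had 52.1 CPM in AP, 71.8 in BP and 72.7 in N1d cells, against 35.8 in N4d and 33.2 in Astro. Dlx6os1 had 62.8, 34.9 and 55.5 CPM, against 32.8 and 18.1, in the same order. Gad2 had 2.94, 37.2 and 102.2 CPM in AP, BP and N1d, against 27.7 in N4d. Gad1 had 0.619, 3.69 and 1.18 CPM, against 17.3. These AP, BP and N1d groups held only 16, 16 and 19 cells. Slc32a1 was under 1 CPM in every cluster outside IN but N4d.late2, where it was at 3.43 CPM. That value rests on very few cells. In N4d.late2 at 96 h, Slc32a1 was at 9.76 CPM in E12 and 11.7 CPM in E14, each from 1 cell, and at 0 CPM in E13 and E15. Of all counts of Gad1 in the table, 80.0% were in IN cells, 16.4% in N4d cells at 96 h and 3.63% in the rest. Of the counts of Dlx1, 68.6% were in IN cells, 22.9% in N4d cells at 96 h and 8.43% in the rest.

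IN cells were unevenly spread over the conditions. They made up 0%, 0.483%, 4.48% and 11.0% of cells at 1 h for E12 to E15, 0%, 0%, 2.74% and 1.41% at 24 h, and 34.8%, 16.5%, 11.8% and 14.8% at 96 h. At 96 h this was 85, 44, 30 and 35 cells, so the levels per day are described at that time. Of the 40 IN cells at 1 h, 33 were from E15, and 24 h gave 9. The median IN cell at 96 h had 274536 counts and 3574 detected genes, against 342764 counts and 4200 genes outside IN.

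At 96 h, Dlx1 had 298.3, 319, 499 and 647 CPM in IN cells of E12, E13, E14 and E15. Dlx2 had 72.3, 104.2, 98.9 and 193.7 CPM, and Dlx5 had 38.5, 61.9, 38.2 and 72.2 CPM, in the same days. Dlx6 had 28.3, 4.81, 16.3 and 45.9 CPM. The 4 coding Dlx genes were all highest at E15, and Dlx1 and Dlx2 were lowest at E12. The mix of clusters also shifted with day, with 24, 15, 14 and 24 cells of IN.2 and 61, 29, 16 and 11 of IN.1 in E12 to E15, and within IN.1 Dlx1 was lowest at E15, with 185.9 CPM. The part of this mix in the values by day was not tested. Dlx6os1, the partner of Dlx6 on the other strand, had 326, 437, 525 and 821 CPM and lay above Dlx6 on every day. For the enzymes, Gad1 had 240, 275.7, 430 and 451 CPM, and Gad2 had 390, 359, 329 and 663 CPM. Slc32a1 had 38.01, 2.74, 27.2 and 0.106 CPM, the first from 898 counts and the last from 1, and of the 35 IN cells of E15 only 1 held a count of it. A few cells decided the values of the low genes: the top 3 cells held 46.4% to 100% of the Slc32a1 counts of a day and 27.5% to 81.1% of the Dlx6 counts, against 20.7% to 40.6% for Dlx1.

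None of the 7 genes tested passed the test for a slope on injection day in IN cells at 96 h. The fit held 16 sums, those of IN and N4d at 96 h, N1d at 24 h and AP at 1 h on each day, with its own line for every class. In IN cells the log2 change per day was 0.41 ± 0.52 for Dlx1, 0.44 ± 0.39 for Dlx6os1, 0.35 ± 0.40 for Gad1 and 0.25 ± 0.28 for Gad2 (SE), with edgeR adjusted p of 0.782, 0.658, 0.753 and 0.756. The SE rests on the spread over all 16 sums, with 8 residual degrees of freedom, and not on the 4 IN sums alone. Dlx2, Dlx5 and Dlx6 had slopes of 0.44 ± 0.70, 0.22 ± 0.67 and 0.29 ± 0.45 and adjusted p of 0.840, 0.923 and 0.835. Slc32a1 did not reach the filter of 10 CPM in at least 3 of the 16 sums. Over all 10650 genes tested, 0.676% were called in this class. With the run code as a block the slopes were -0.46 for Dlx5, -0.62 for Dlx6 and -0.028 for Gad2, and with IN.1 cells alone they were -0.020 for Dlx1 and -0.16 for Dlx6os1.

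The IN clusters stood apart at 96 h in their markers and in Dlx1 and Dlx6os1. At 96 h, IN.2 had 17.4 CPM of Lhx6, a factor of interneurons from the medial ganglionic eminence, against 733 CPM in IN.1. Sst, a peptide of such interneurons, was at 0.333 CPM in IN.2 and 63.4 CPM in IN.1, and Htr3a, a serotonin receptor of other interneurons, was at 88.8 CPM in IN.2 and 2.83 CPM in IN.1. Dlx6os1 had 745, 808, 861 and 1110 CPM in IN.2 and 175.2, 196.2, 179.1 and 107.5 CPM in IN.1 of E12 to E15, with no overlap between the clusters, as in 1.44% of all 16441 genes, whose 4 values in IN.2 lay above the 4 in IN.1. The clusters were made from expression, so nothing is read from this count. Dlx1 had 445, 446, 700 and 834 CPM in IN.2 and 245.7, 237.04, 292.4 and 185.9 CPM in IN.1, again with no overlap. The other 6 genes overlapped. Gad2, for example, had 510, 298.4, 336 and 642 CPM in IN.2 and 347, 399, 322 and 717 CPM in IN.1. Of the cells at 96 h, Dlx6os1 was detected in 94.8% of IN.2 and 61.5% of IN.1, and Gad2 in 80.5% and 81.2%. In E15 at 1 h, with 10 cells of IN.1 and 23 of IN.2, the order was the other way. Dlx1 had 266.9 CPM in IN.1 and 96.7 CPM in IN.2, Dlx6os1 had 447.4 and 263.6 CPM, and all 8 genes were higher in IN.1.

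**Figure D2:**
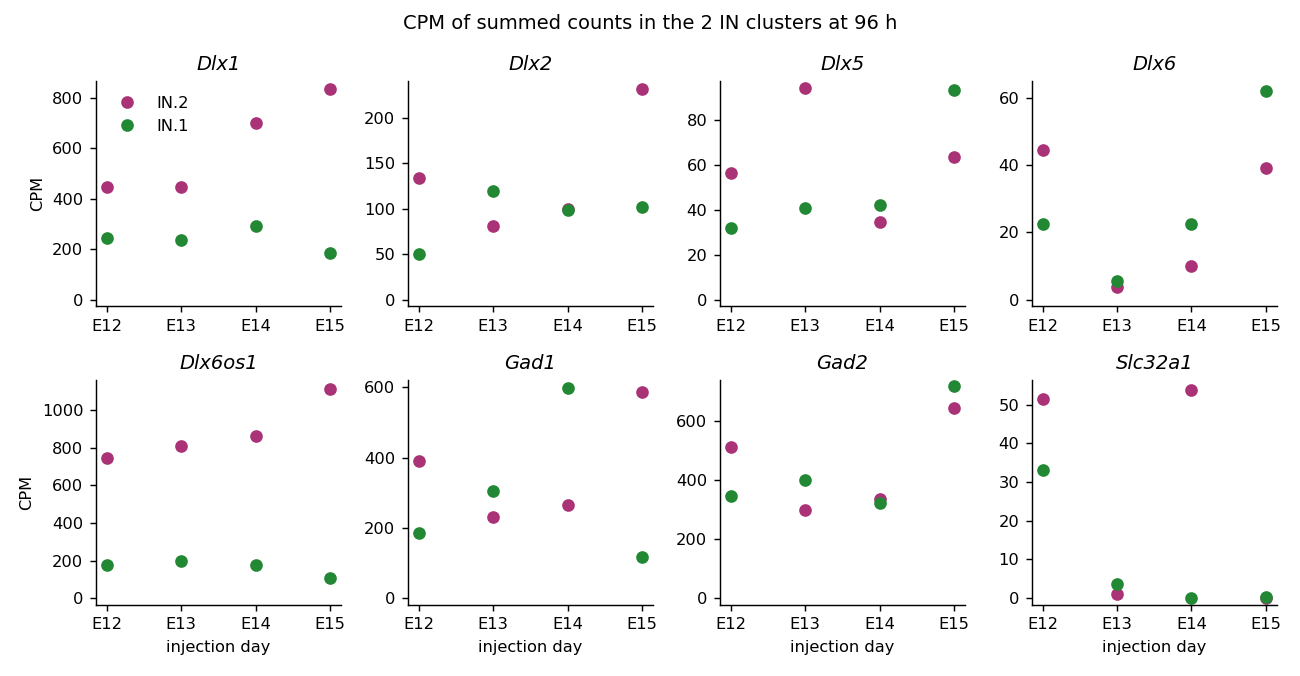
CPM of summed counts of the 8 genes (1 panel each) in IN.2 cells (purple) and IN.1 cells (green) at 96 h, by injection day, with 11 to 61 cells a point. The purple points of Dlx1 and Dlx6os1 lie above all green points, and the clusters mix for the other genes.

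Single IN cells rarely held all 8 genes. At 96 h the median was 5 of 8, with 80.9% of the cells at 4 or more, 1 cell with none and 1 cell with all 8. Gad2 was detected in 80.9% of the cells, Dlx1 in 77.8%, Dlx6os1 in 74.7%, Gad1 in 73.7%, Dlx6 in 52.1%, Dlx2 in 49.5%, Dlx5 in 35.1% and Slc32a1 in 16.5%. A coding Dlx gene together with Gad1 or Gad2 was found in 88.1% of cells, a coding Dlx gene without the enzymes in 15 cells, an enzyme without a coding Dlx gene in 5 and neither in 3. Gad1 and Gad2 were found together in 63.9% of cells, Gad2 without Gad1 in 33 and Gad1 without Gad2 in 19. Dlx1 and Dlx2 were found together in 81 cells, Dlx1 without Dlx2 in 70 and Dlx2 without Dlx1 in 15. Dlx6 was low where found, with a median of 2 counts in a positive cell, against 98 for Dlx6os1, 86 for Dlx1 and 98 for Gad2.

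The genes were also counted in cells outside the IN clusters, mainly at 96 h. At 96 h, Dlx1 had 47.3, 24.6, 34.1 and 49.1 CPM outside IN in E12 to E15, against 1.75, 0, 1.29 and 0.704 CPM at 24 h. Dlx6os1 had 34.2, 25.4, 31.1 and 43.4 CPM at 96 h, against 0.25, 0, 0.0435 and 1.07 CPM at 24 h. Every value at 96 h was above every value at 24 h for both genes. Gad1 had 15.1, 9.23, 20.3 and 17.3 CPM at 96 h, against 0.0374, 0.234, 1.35 and 0.367 CPM at 24 h. Gad2 had 33.1, 14.3, 35.2 and 29.4 CPM at 96 h, against 5.29, 1.92, 0.479 and 2.80 CPM at 24 h, and neither gene overlapped between the times. In the edgeR fit over 12 sums of cells outside IN, 96 h was above 24 h by 5.30 ± 1.53 (SE, log2) for Dlx1, 7.29 ± 1.40 for Dlx6os1, 6.01 ± 1.32 for Gad1 and 3.35 ± 0.87 for Gad2, with adjusted p of 0.0276, 0.00351, 0.00782 and 0.0168. Of 10238 genes tested, 10.3% were called higher at 96 h. These 4 genes passed the filter of 10 CPM only through the sums of 96 h, so that they passed the test is given as a description. Dlx1 was no longer called with no filter (adjusted p = 0.0518) or with N4d at 96 h and N1d at 24 h alone (adjusted p = 0.0515). It also lost the call without E14 at 24 h, E15 at 24 h or E12 at 96 h, with a highest adjusted p of 0.0974, and Gad2 without E15 at 24 h or E12 at 96 h, with a highest of 0.0703.

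The 4 other genes did not reach the filter outside IN. Dlx2 had 12.5, 3.31, 4.18 and 7.31 CPM at 96 h, against 0, 0.849, 0.0435 and 0.245 CPM at 24 h, with no overlap. Dlx5 had 6.98, 1.31, 5.84 and 0.903 CPM at 96 h, against 0.786, 0, 0.163 and 0.255 CPM at 24 h, with no overlap but with the lowest value at 96 h, 0.903 CPM, next to the highest at 24 h, 0.786 CPM. Dlx6 had 0.509, 0.432, 3.56 and 3.89 CPM at 96 h, against 0.175, 0.279, 0.294 and 0.479 CPM at 24 h, so the times overlapped. Slc32a1 was at 0.0156 to 2.13 CPM at 96 h, against 0 to 0.0306 CPM at 24 h, and overlapped too. In 11.2% of all 16441 genes all 4 values at 96 h lay above all 4 at 24 h. The run codes in the cell titles each held 1 collection time, so time and run cannot be told apart. The IN share was also highest at 96 h, and the summed interneuron markers outside IN were at 117.1 to 556 CPM at 96 h, against 37.1 to 86.2 CPM at 24 h. Their part in the result was not tested. In sums of cells, fewer cells of a type and less RNA per cell cannot be told apart.

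**Figure D3:**
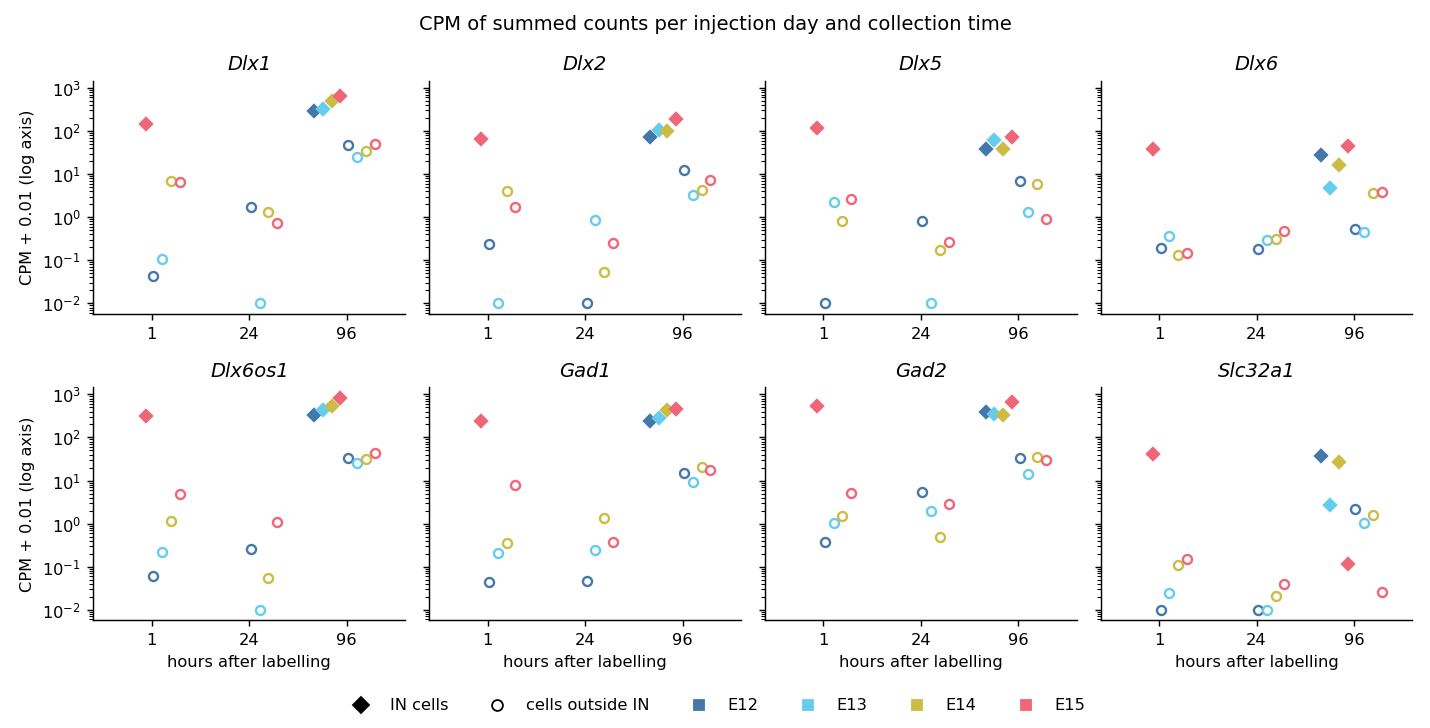
CPM of summed counts of the 8 genes (1 panel each) in IN cells (diamonds, groups of at least 10 cells) and in cells outside IN (circles) at 1, 24 and 96 h, on a log axis of CPM + 0.01, with a colour for each injection day. Circles at 96 h lie above those at 24 h for Dlx1, Dlx2, Dlx5, Dlx6os1, Gad1 and Gad2 and below the diamonds of their own day, and the 1 h circles of Dlx1 and Dlx6os1 are higher for E14 and E15 than for E12 and E13.

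In sums over all cells, IN included, the same contrast was made. Dlx1 had 115.9, 57.1, 82.1 and 125.5 CPM at 96 h, against 1.75, 0, 9.63 and 11.4 CPM at 24 h, a difference of 4.92 ± 1.52 (SE, log2, edgeR adjusted p = 0.0348). Gad2 had 130, 52.3, 65.6 and 110 CPM at 96 h, against 5.29, 1.92, 5.65 and 7.39 CPM at 24 h, a difference of 4.36 ± 1.02 (adjusted p = 0.0101). Dlx6os1 (7.24 ± 1.56, adjusted p = 0.00668), Gad1 (6.38 ± 1.60, adjusted p = 0.0142) and Dlx2 (4.85 ± 1.36, adjusted p = 0.0226) were also called, and Dlx5 was not (4.08 ± 1.50, adjusted p = 0.0681). Of 10243 genes tested, 10.3% were called higher. Of the 6 genes tested here, Dlx2, Dlx5, Dlx6os1, Gad1 and Gad2 reached 10 CPM in 3 sums only with those of 96 h, so their tests are given as a description, while Dlx1 did so in 3 sums of 1 h and 24 h. Dlx1 lost the call with no filter (adjusted p = 0.0663), and Gad1 with the 6 run codes as samples (adjusted p = 0.0676). The call of Dlx1 was lost without E12, E14 or E15 at 24 h or E12 or E14 at 96 h, that of Dlx2 without E13 or E15 at 24 h and that of Gad1 without E12 at 24 h, with highest adjusted p of 0.0966, 0.0571 and 0.0508. Dlx5 was called with DESeq2 (adjusted p = 0.00533) and with equal weight of cells (adjusted p = 0.0492). Between 24 h and 1 h edgeR called none of the 6 genes tested over all cells or the 4 tested outside IN, where 17.6% of genes with all cells and 18.7% outside IN were called. The smallest adjusted p was 0.0659, for Dlx6os1 over all cells (-3.78 ± 1.32, lower at 24 h), which DESeq2 called (-3.81, adjusted p = 0.0478).

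The share of cells with a count was also higher at 96 h than at 24 h in these samples. Without thinning, Dlx1 was detected in 42.8%, 31.4%, 32.1% and 49.01% of cells outside IN at 96 h (E12 to E15), against 1.87%, 0%, 6.57% and 7.62% at 24 h. Gad2 was detected in 35.4% to 50.9% at 96 h, against 12.7% to 27.8% at 24 h. Depth differed between cells, so shares were also computed for each cell thinned to 100000 counts, which left out 2 to 34 shallower cells a condition. Thinned, Dlx1 was at 24.9% ± 5.46 at 96 h and 1.89% ± 1.38 at 24 h (SD, n = 4 days each). Dlx6os1 was at 24.8% ± 7.33 and 0.395% ± 0.374, Gad1 at 16.4% ± 4.73 and 0.934% ± 0.643, and Gad2 at 25.9% ± 6.70 and 10.1% ± 5.53, 96 h before 24 h. Dlx2 (8.72% and 0.720%), Dlx6 (8.36% and 2.38%) and Dlx5 (5.32% and 0.734%) were lower at both times. For these 7 genes the 4 values at 96 h lay above the 4 at 24 h, as did those of 9.73% of all genes. The 2-sided exact permutation test gave p = 0.0286 for each of the 7, the smallest that 4 days against 4 allow, and 0.0653 after adjustment over 16 tests, so no share passed 0.05. Even with all 8 genes at that smallest p, this contrast could not pass 0.05 by itself after the adjustment. Nothing is therefore read from its not passing. Slc32a1 was at 1.14% and 0.129% (exact p = 0.0571, adjusted 0.102). Between 24 h and 1 h the smallest exact p was 0.0571, for Dlx6 (2.38% at 24 h and 1.46% at 1 h, adjusted 0.102).

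Gad2 was the gene most often seen outside IN before 96 h. The cells of E12 and E13 at 24 h shared a run code that held no IN cell, and 26.9% of these 491 cells had a Gad2 count, 98 of them with 1 to 3 counts. Dlx6 was found in 24 of the 491 cells, with 22 at 1 to 3 counts, and each other gene in at most 5, with Slc32a1 in none. In the run of E14 and E15 at 24 h, with 9 IN cells, 14.7% of the cells outside IN had a Gad2 count.

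At 96 h the counts of N4d cells had a long upper tail. Dlx1 was found in 77.8% of IN cells, with a median of 86 counts and 13.9% of positive cells at 1 count, against 37.95% of 693 N4d cells, with a median of 2 counts and 42.97% of positive cells at 1 count. At least 10 counts of Dlx1 were held by 55.7% of IN cells and 10.7% of N4d cells, and at least 100 counts by 36.1% of IN cells and 4.18% of N4d cells. For Gad1 the shares at 10 counts were 55.2% of IN and 5.63% of N4d cells, and for Gad2 64.9% of IN and 7.36% of N4d cells. Over all cells outside IN, cells with 10 or more counts held 95.3% of the Dlx1 counts, 94.01% of Dlx6os1 (88 cells), 90.5% of Gad1 (48 cells) and 86.4% of Gad2 (77 cells). Few cells thus held most counts outside IN, while many held 1 or 2.

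**Figure D4:**
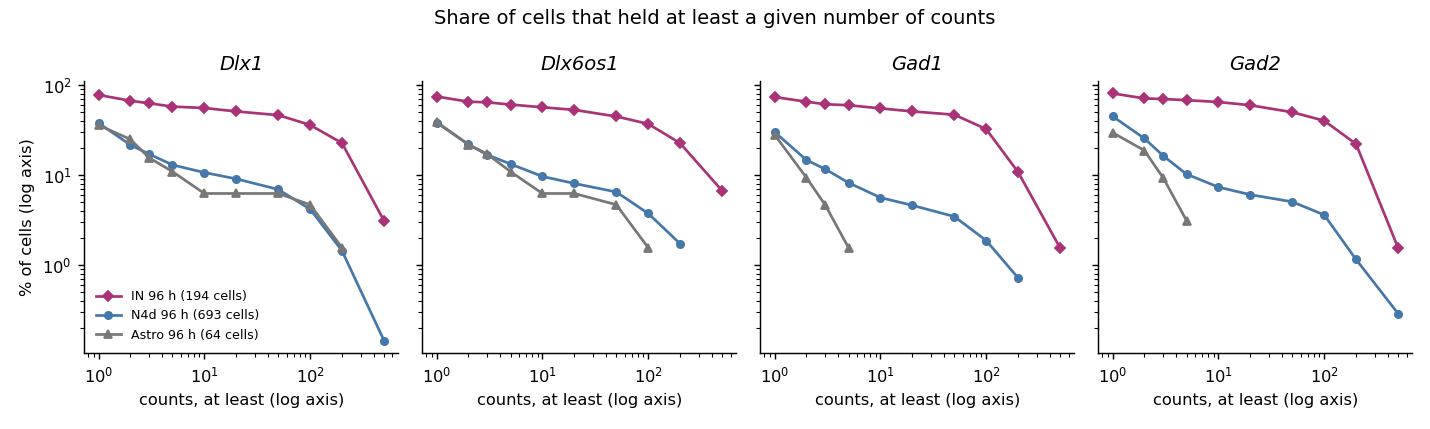
Share of cells (log axis, %) that held at least a given number of counts (log axis) of Dlx1, Dlx6os1, Gad1 and Gad2 at 96 h, for IN (diamonds), N4d (circles) and Astro cells (triangles). The Gad1 and Gad2 lines of Astro end under 10 counts, while their Dlx1 line reaches 100 counts, as that of N4d does.

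Cells outside IN with several of the genes were mostly N4d cells. Of 2513 cells outside IN, 5.53% held 4 or more of the 8 genes (95% Clopper-Pearson interval 4.67% to 6.50%, for counting error only). At 1 h this was 10 of 791 cells (1.26%), at 24 h 0 of 914, with an upper bound of 0.403%, and at 96 h 16.0% of 808. In N4d it was 15.9% of 709 cells, in Astro 9 of 64 (14.1%), in AP 8 of 843 and in N1d 4 of 669, against 77.8% of IN cells. These classes differed in collection time, since 693 of the N4d cells and all Astro cells were of 96 h. The N1d cells with 4 or more of the genes were all of 96 h too, where N1d had only 19 cells. Class and time are thus not separated in these shares. Among N4d cells at 96 h, those with 4 or more of the genes had a median of 4957 detected genes, against 4108 in cells with 1 to 3 and 4053 in cells with none, at median totals of 308776, 351569 and 358153 counts. IN cells at 96 h had a median of 3574 detected genes. The interneuron markers summed to 488 CPM in N4d cells with 4 or more of the genes, against 245.5 CPM with 1 to 3 and 187.1 CPM with none, and to 2164 CPM in IN cells. Lhx6, for example, had 59.99 CPM in the first of these groups, 45.4 in the second, 17.6 in the third and 440 in IN cells. The excitatory marker Neurod6 had 1202 CPM in the N4d cells with 4 or more, 1415 CPM with 1 to 3 and 1418 CPM with none, against 257.9 CPM in IN cells. No doublet caller was run, and the part of doublets in these values was not tested.

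**Figure D5:**
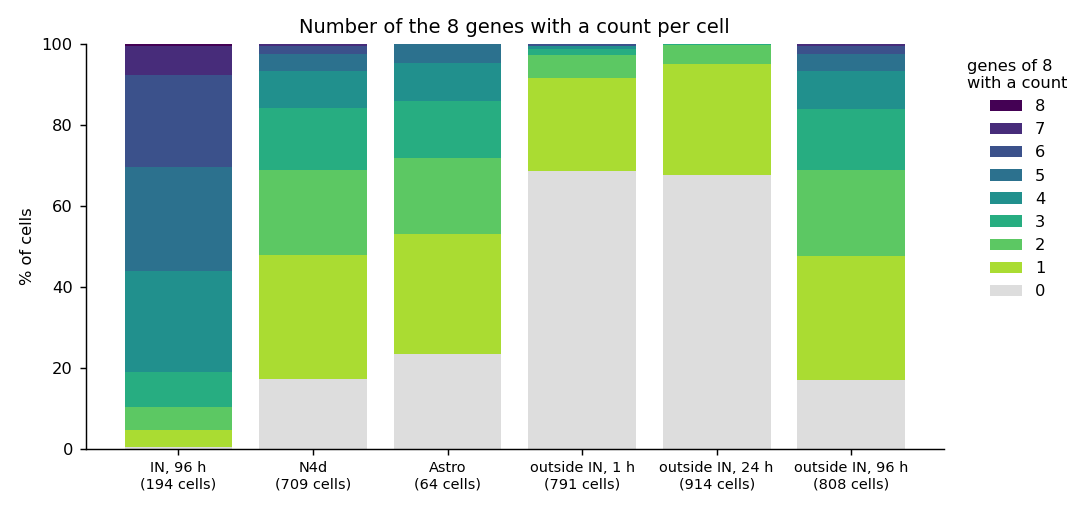
Stacked bars of the share of cells (%) that held a count of 0 to 8 of the 8 genes, for IN cells at 96 h, N4d and Astro cells, and cells outside IN at 1, 24 and 96 h. IN cells centre on 5 genes, cells outside IN at 1 and 24 h mostly hold none, and those at 96 h mostly hold 1 to 3.

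Astro cells held fewer counts of the enzymes for each Dlx1 count than N4d and IN cells did. Within E15 at 96 h, the day of 54 of the 64 Astro cells, Gad1 counts were 4.16% of Dlx1 counts in Astro, against 48.3% in N4d and 69.8% in IN cells. Gad2 counts were 7.04% of Dlx1 counts in Astro, 63.7% in N4d and 102.6% in IN cells. Dlx6os1 counts were 35.0% of Dlx1 counts in Astro, 101.01% in N4d and 126.85% in IN cells. The ratios of Gad1 and Gad2 to Dlx1 in Astro were thus below those of both other classes of the same day, on 625 Dlx1, 26 Gad1 and 44 Gad2 counts. Only 3 of the 54 cells held 10 or more Dlx1 counts and none held 10 or more of Gad1 or Gad2. Over the 4 days the Gad1 ratio was 35.6% to 67.8% of Dlx1 in N4d and 69.8% to 86.4% in IN cells. A low Gad1 level for the Dlx1 level was not particular to Astro. Over all days at 96 h, AP cells had 52.1 CPM of Dlx1, against 0.619 CPM of Gad1. N1d cells had 72.7 against 1.18 CPM, and BP cells 71.8 against 3.69 CPM. Gad2 was low in AP cells, at 2.94 CPM, but was at 37.2 CPM in BP and 102.2 CPM in N1d cells. These AP, BP and N1d groups held few cells. At 96 h the 5 astrocyte markers summed to 4684 CPM in Astro, against 44.3 CPM in N4d and 55.8 CPM in IN cells. The oligodendrocyte precursor markers, 2 of 4 in the table, summed to 142.8 CPM in Astro, against 3.44 CPM in N4d and 0.253 CPM in IN cells. The ventral progenitor markers, 3 of 6 in the table, summed to 78.5 CPM in Astro, against 10.4 CPM in N4d and 13.8 CPM in IN cells, and the interneuron markers to 155.5 CPM in Astro. The part of these in the ratios was not tested.

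At 1 h, Dlx1, Dlx6os1, Gad1 and Gad2 were higher in AP cells of E14 and E15 than in those of E12 and E13, while Dlx5 and Dlx6 were highest in E13. In AP cells, Dlx1 had 0.0342, 0.102, 7.58 and 6.66 CPM in E12 to E15, Gad1 had 0.0342, 0.203, 0.375 and 5.03 CPM, and Gad2 had 0.377, 1.06, 1.65 and 5.53 CPM. Dlx6os1 had 0.0514, 0.218, 1.17 and 6.01 CPM. Dlx5 had 0, 2.34, 0.617 and 1.99 CPM, and Dlx6 had 0.188, 0.378, 0.132 and 0.0931 CPM. In E13, 1 cell held most of the Dlx5 counts of AP cells and 1 cell most of the Dlx6 counts. The E13 values of both genes thus rest mainly on 1 cell each. The IN share over the same days was 0%, 0.483%, 4.48% and 11.0%, and its part in these values was not tested. The slope on injection day in AP cells was 2.31 ± 0.50 (SE, log2) for Gad1, 2.30 ± 0.51 for Dlx6os1, 2.88 ± 0.86 for Dlx1 and 1.21 ± 0.33 for Gad2, with edgeR adjusted p of 0.0616, 0.0728, 0.285 and 0.208. None was called, nor was Dlx2 (1.54 ± 0.95), Dlx5 (0.73 ± 0.86) or Dlx6 (-0.53 ± 0.64), where 0.526% of 10650 genes were. DESeq2 called Gad1, Dlx6os1, Dlx1 and Gad2 (adjusted p of 0.0102, 0.0258, 0.00424 and 0.00556), and edgeR called Dlx1 with the run code as a block (adjusted p = 0.0396) and Dlx6os1 with equal weight of cells (adjusted p = 0.0172). Few cells carried these values: 6 AP cells of E15 held 10 or more Dlx1 counts, 3 held 10 or more of Gad1, and at E12 no AP cell did for either gene. Over all 4 days at 1 h, 8 AP cells held 10 or more Dlx1 counts, so the E14 value of Dlx1 rests on few cells as well. In N1d at 24 h and N4d at 96 h none of the 7 genes tested had a slope past the threshold, with smallest adjusted p of 0.693 (Dlx6os1) and 1 and with 0.131% and 0% of genes called. The highest sum of any of these genes was 6.27 CPM in N1d (Gad2) and 7.58 CPM in AP (Dlx1). They thus passed the filter of 10 CPM only through sums of IN and N4d. In N1d, Dlx5 reached only 0.0149 CPM and Dlx2 only 1.28 CPM. At such levels the N1d test cannot tell a missing slope from too few counts, so nothing is read from it. In N4d 367 genes had an unadjusted p under 0.05, and DESeq2 called 49.

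The 33 IN cells of E15 at 1 h held the enzymes too. Gad2 had 529 CPM there and was found in 84.8% of the cells, and Gad1 had 236.6 CPM in 57.6%. Dlx6os1 had 315 CPM in 63.6%, Dlx1 144.7 CPM in 45.5% and Slc32a1 40.8 CPM in 24.2%. In IN cells of E15 at 96 h the values were 663 CPM for Gad2, 451 for Gad1, 821 for Dlx6os1, 647 for Dlx1 and 0.106 for Slc32a1, in 85.7%, 74.3%, 82.9%, 88.6% and 2.86% of cells. With 1 sum at each time there is no test of these differences, and 23 of the 33 cells at 1 h were of IN.2, against 24 of 35 at 96 h.

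The genes most like these 8 were sought over 35 sums of a cluster in a condition with at least 20 cells, 5 of them IN, by Pearson's r of log2(CPM + 1) with the mean of the 8 genes, among 8853 genes with at least 10 CPM in IN cells. Of the 10 closest, 2 have only a clone name and the others were Gm14204 (0.95), Erbb4 (0.92), Neto1 (0.92), Sp9 (0.89), Nrxn3 (0.89), Maf (0.88), Neb (0.87) and Grm5 (0.86). Each of the 8 genes had r of 0.65 (Slc32a1) to 0.96 (Gad2) with the mean of the other 7. The points share runs and days, so r is given as a description. Gm14204 (chr2:158595472-158610723, minus strand) ends 43 bases from Slc32a1, head to head. It had 226.2 CPM in IN cells, against 10.9 CPM outside IN at 96 h, while Slc32a1 had 26.9 CPM in IN cells. Erbb4 encodes a neuregulin receptor of migrating interneurons, and Sp9 and Maf encode transcription factors of the interneuron lineage.

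Other genes of the pathway were read in the same contrast of 96 h over 24 h. Of the factors and receptors that act after the Dlx genes or in migration, 11 of 12 were tested over all cells, where 4 rose and 1 fell (median change 1.48, against -0.03 for all genes), and 10 outside IN, where 4 rose and 1 fell (median 0.47, against -0.01). Of all genes tested, 10.3% were called higher and 11.6% lower over all cells, and 10.3% higher and 9.58% lower outside IN. Outside IN, Lhx6 rose by 8.65 ± 2.33 (SE, log2, edgeR adjusted p = 0.0202), Erbb4 by 7.84 ± 2.03 (adjusted p = 0.0170), Maf by 5.36 ± 1.28 (adjusted p = 0.0116) and Zeb2 by 2.16 ± 0.39 (adjusted p = 0.00241), while Nrp2, a semaphorin receptor, fell by 1.98 ± 0.63 (adjusted p = 0.0426). Lhx6, Erbb4 and Maf reached the filter outside IN only with the sums of 96 h, and so did Gabbr2, and Sp9 over all cells, so their tests are a description. Of the genes of GABA and glutamate metabolism, transport and reception, 8 of 10 were tested, and 4 rose and none fell both over all cells and outside IN (median 1.23 and 1.16), where 10.3% of all genes were called higher in each fit. Among them were Gabbr1 (1.17 ± 0.22 outside IN, edgeR adjusted p = 0.00308) and Gabbr2 (4.27 ± 1.33, adjusted p = 0.0381), which encode GABA-B receptor subunits. Of the ventral transcription factors listed, 3 of 10 were tested over all cells and 2 outside IN. Over all cells Sp9 rose by 6.34 ± 1.76 (edgeR adjusted p = 0.0221), and outside IN none was called. Some of these genes, among them Zeb2 and Gabbr1, are also expressed by glutamate neurons.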

How the data were processed

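The deposited counts are whole numbers of reads per gene and cell, made by the authors and not normalized. TopHat2 2.0.13, UMI-tools and GRCm38 are named in the submitters' processing notes, while the role of each tool and the counter are not given in the sources used here. Cells took their day, time and cluster from the labels. The 2756 cells gave 134 to 301 cells a condition. IN held 243 cells, with 194 at 96 h, of which 117 were IN.1 and 77 IN.2. Counts were summed per group of cells, and CPM is the sum per M counts. Sums with at least 10 CPM in at least 3 sums were tested with edgeR 4.0.16 (quasi-likelihood, TMM, R 4.3.3) over all genes, with Benjamini-Hochberg adjusted p under 0.05 as the threshold, and with DESeq2 1.42.0 as an alternative. Residual degrees of freedom are those among sums. For shares, cells were thinned to 100000 counts, which left out 113 cells, and days were compared by exact permutation (70 splits, 16 tests adjusted together). Intervals are 95% Clopper-Pearson and cover counting error only. Genes, clusters and lists were chosen with earlier results of these data known. Beyond the 8 genes, the text names 8 of the 10 closest by likeness and examples of the list genes that passed the test; some list genes are not reported here. The fits were tested on simulated data only for 24 h over 1 h and for the slope in IN cells. The contrast of 96 h over 24 h and the other slopes were not simulated. Python 3.11.15, numpy 2.4.6, pandas 2.3.3, scipy 1.17.1 and matplotlib 3.10.9 were used.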

Additional observations from a re-analysis of the deposited data

Results flagged for a closer look

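Among 56 groups of 4 days tested, 4 held a day far from the other 3 by Dixon's criterion, which chance gives in about 1 in 20 groups. Dlx6 over all cells at 1 h was at 3.82 CPM in E15, against 0.182 to 0.363 CPM in the other days. Gad2 over all cells at 1 h was at 56.9 CPM in E15, against 0.364 to 9.53 CPM. Slc32a1 over all cells at 24 h was at 0.638 CPM in E14, against 0 to 0.0404 CPM. Gad1 outside IN at 1 h was at 7.95 CPM in E15, against 0.0331 to 0.343 CPM. IN cells made up 11.0% of the cells of E15 at 1 h and 2.74% of those of E14 at 24 h, the highest shares at those times, and their part in the values over all cells was not tested.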

How the results depend on the processing

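No paired analysis was possible because the replicate numbers only name cells in accession order and no label pairs cells or animals. This holds for cells and animals only. Each injection day had a sum at 1, 24 and 96 h, and day as a block was not tested. Day entered the time fits as a straight line, which left 8 residual degrees of freedom, and the permutation of shares did not pair days. With the 6 run codes as samples, genes called were 629 (24 h over 1 h) and 801 (96 h over 24 h) over all cells, and 750 and 728 outside IN, and with the main class of each time alone 3249 outside IN at 24 h over 1 h. For slopes, DESeq2 called 2.29% of genes in AP, 8.8% in IN, 2.12% in N1d and 0.46% in N4d. IN.1 alone gave 0.265% in AP, 7% in IN and 0% in N1d. No filter gave 0.219%, 0.182% and 0% in AP, IN and N1d, the run block 0.254%, 0% and 0%, and DESeq2 size factors 0.00939% in N4d. Among the genes described, Dlx1 over all cells was at 4.87 and outside IN at 5.25 with no filter, and at 4.91 outside IN with the main class, all 3 no longer called. Gad1 over all cells was at 4.45 with run codes, also not called. Dlx5 over all cells was called with DESeq2 (4.11) and with equal weight of cells (4.52). In IN cells the slopes that changed sign were -0.020 (Dlx1) and -0.16 (Dlx6os1) with IN.1 alone, and -0.46 (Dlx5), -0.62 (Dlx6) and -0.028 (Gad2) with the run block. At 10 or more counts the share at 24 h minus 1 h changed sign for Dlx6 (-0.00231 points) and Gad2 (-0.323 points). The cause of these changes was not tested. Leaving out 1 sum in turn gave 1178 to 1958 and 1430 to 2364 genes called over all cells, 1331 to 2010 and 1312 to 2170 outside IN, and for slopes 0.133% to 0.816% in AP, 0.265% to 4.5% in IN, 0% to 0.18% in N1d and 0% to 0.00949% in N4d. Of the genes described, 0 to 1 had a called slope in N1d. At 96 h over 24 h, Dlx1 ranged over 3.88 to 5.57 over all cells and 4.63 to 7.07 outside IN, Dlx2 over 3.76 to 5.89, Dlx5 over 3.64 to 5.20, Gad1 over 5.16 to 8.04 (all cells) and Gad2 over 2.94 to 4.44 (outside IN). At 24 h over 1 h the sign changed for Dlx1 over all cells (-1.96 to 0.13) and as a share (-1.73 to 0.146 points), Gad2 over all cells (-1.74 to 0.43) and outside IN (-0.15 to 1.38), and Gad1 outside IN (-1.98 to 0.98). So did the slopes of Dlx5 in AP (-0.15 to 2.80) and IN (-0.0025 to 0.29) and of Gad2 in IN (-0.12 to 0.46).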
